A study of Mus musculus with 95 samples.

Results

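The kidneys of SNF1 mice 8 weeks after an injection of pristane were compared with kidneys of untreated SNF1 mice of the same week. SNF1 mice are the F1 offspring of a cross between SWR and NZB mice, a hybrid that develops lupus-like autoimmune disease with age, and pristane is a hydrocarbon oil that speeds up this disease. The 18 kidneys of week 8 (8 from pristane mice, 10 from untreated mice) are chosen by their sample titles and are part of 95 kidneys of the series, sampled at weeks 0, 2, 4, 8, 12 and 14. Each array holds 1 kidney of 1 mouse. By the study's methods the mice were young females that received the oil into the peritoneal cavity, and the controls were left uninjected, so the injection itself has no control here. The methods also name independent time course experiments, and the labels do not say which mouse belongs to which experiment or at what time of day a kidney was taken. The part of either in the results below was not tested.

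The arrays were of the Affymetrix type HT MG-430 PM, and values are log2 levels after normalization by RMA. Levels end at a floor of 2.21, where 17.9% to 19.7% of the values of an array lay. The array medians ranged from 4.27 to 4.42. Correlations between the 18 arrays ranged from 0.980 to 0.998, and the lowest was 0.991 without untreated mouse 2. Markers of the kidney were present, with a median level over genes of 11.24 for 21 proximal tubule genes, 8.77 for 19 distal nephron genes and 6.97 for 10 podocyte genes. Xist lay between 11.30 and 11.71 on all 18 arrays, and the Y-linked Kdm5d and Uty lay at the floor. The arrays hold whole kidney, in which fewer cells of a type and less RNA per cell cannot be told apart. Some arrays of both groups also had high levels of adrenal genes, given below.

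Type I interferons bind a receptor found on nearly all cells and switch on many interferon-stimulated genes through STAT and IRF transcription factors. Their products include the oligoadenylate synthetases, which sense double-stranded RNA and make a messenger that activates RNase L, the IFIT proteins, which bind foreign RNA, and regulators such as Irf7 and Usp18 that amplify or restrain the response. A raised level of such genes is a known feature of lupus in mice and in people. In kidneys with lupus nephritis, immune complexes, infiltrating myeloid cells and tubular injury add further changes.

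At week 8, 19 genes were higher in pristane kidneys and no gene was lower, where a call asks for more than a 2-fold change and an adjusted p under 0.05. These calls took 21 of 45037 probe sets (0.0466%), of which 2 have no gene name here. P-values are from limma with Benjamini-Hochberg adjustment over all probe sets. Without the minimum fold change, 39 probe sets with 34 gene names passed, all of them higher in pristane kidneys. At an unadjusted p under 0.05 there were 1634 of 45037 probe sets, of which 1229 were higher and 405 lower in pristane kidneys. This is a smaller share than 0.05, but 4484 probe sets lay at the floor on all 18 arrays and could not pass. The count by itself therefore cannot tell whether there was a wider response. The 19 genes differed by 2.01-fold to 15.3-fold, with a median log2 fold change of 1.64, against 0.00 over all probe sets. In 10 of the 19 genes every pristane kidney lay above every untreated kidney, a separation found in 0.105% of all genes. The 19 genes were selected on these same values, so a high median and separated groups follow in part from the call itself. The count of 19 moved to 10 without pristane mouse 3, to 12 without pristane mouse 4, to 11 without untreated mouse 4, and to 12 without untreated mouse 5 or untreated mouse 7. Slfn4, S100a9, Ifit1, Usp18, Oas3, Oas1g, Irf7, Zbtb16, Oas2 and Ifi44 were called whichever of the 18 mice was left out.

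**Figure D1:**
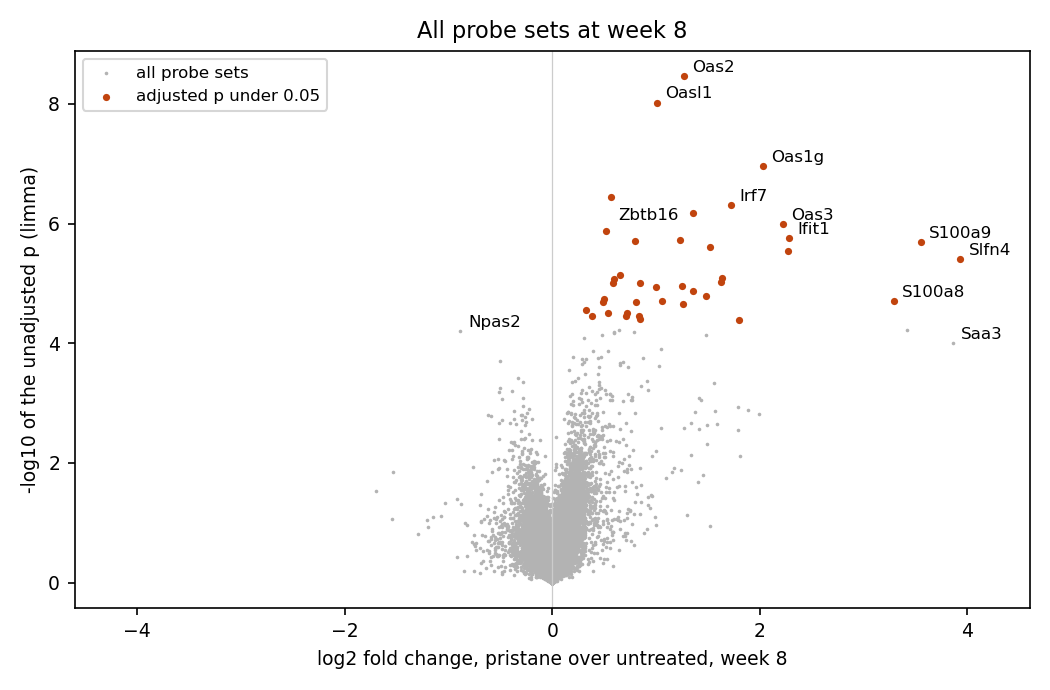
Log2 fold change of pristane over untreated kidneys at week 8 (x axis) against the negative log10 of the unadjusted p from limma (y axis), 1 point for each of 45037 probe sets. The 39 probe sets with an adjusted p under 0.05 are in orange, and all of them lie to the right of 0.

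The oligoadenylate synthetases were the group that moved as a whole. Of 8 genes on the list 6 were measured, and all 6 rose in pristane kidneys, with a median log2 fold change of 1.46, against 0.181% of all genes that rose and a median of 0.00. Interferon-stimulated genes are known to carry a response element with repeated GAAA blocks, so the start-proximal sequence was searched for GAAANNGAA on both strands (on the other strand it reads TTCNNTTTC). Of the 19 called genes, 13 had a promoter in the RefSeq set of GRCm38.p6, which holds 250 bases before and 50 after a start site, and 5 of the 13 (38.5%) held the motif. Over all 27025 genes with a promoter in that set the share was 9.76%. Oas2, Zbtb16, Usp18, Mx1, Ifi204 and Rtp4 had no entry. The stretches that hold the motif in 2 oligoadenylate synthetases and 2 IFIT genes are shown 5′ to 3′ on the strand of the gene, with the bases of the matches in capitals. They lie at chr5:120887614-120887651 on the minus strand for Oas1g, chr5:120777700-120777754 on the minus strand for Oas3, chr19:34640760-34640833 on the plus strand for Ifit1 and chr19:34583354-34583455 on the plus strand for Ifit3, all upstream of the start site.
Oas1g: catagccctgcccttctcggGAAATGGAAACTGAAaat
Oas3: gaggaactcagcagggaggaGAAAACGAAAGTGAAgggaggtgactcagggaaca
Ifit1: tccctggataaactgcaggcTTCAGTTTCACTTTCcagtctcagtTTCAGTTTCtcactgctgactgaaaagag
Ifit3: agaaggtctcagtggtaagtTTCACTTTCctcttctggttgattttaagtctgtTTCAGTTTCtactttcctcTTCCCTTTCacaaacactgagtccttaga
Neighbouring matches overlap in Oas1g, Oas3 and Ifit1, and appear there as 1 longer run of capitals. The STAT motif TTCNNNGAA was found in none of the 13 promoters and in 9.55% of all genes with one. A match is a stretch of letters, not a measured binding site.

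Oas2, an enzyme of the oligoadenylate synthetase family, had the smallest p of all probe sets. Its log2 level lay between 5.45 and 6.19 (median 5.70) in pristane kidneys, against 3.82 to 4.73 (median 4.47) in untreated kidneys. The groups did not overlap, and the log2 fold change was 1.27 ± 0.113 (SE, 2.42-fold, adjusted p = 1.54e-04). Oas1g, whose promoter is shown above, had levels of 6.31 to 8.03 (median 6.82) in pristane kidneys and 4.24 to 5.83 (median 4.76) in untreated kidneys. Every pristane kidney was again above every untreated one, by 2.03 ± 0.229 on average (4.09-fold, adjusted p = 0.00163). Oas3 had levels of 3.24 to 6.34 (median 5.25) in pristane kidneys, against 2.49 to 3.44 (median 2.96) in untreated kidneys. Only pristane mouse 1 lay within the untreated range, and the log2 fold change was 2.22 ± 0.295 (4.65-fold, adjusted p = 0.00662). The family's divergent member Oasl1, which restrains translation of Irf7 in mice, lay between 3.44 and 4.37 (median 3.78) in pristane kidneys and between 2.67 and 2.93 (median 2.78) in untreated kidneys. It differed by 1.01 ± 0.0955 (2.01-fold, adjusted p = 2.14e-04), a narrow gap with no overlap and the smallest fold among the 19 genes. Oasl2 rose by 1.64 ± 0.257 (adjusted p = 0.0209) with 7 of 8 pristane kidneys above all untreated ones. Oas1b, known for its part in resistance of mice to flaviviruses, rose by 0.60 ± 0.0947 (adjusted p = 0.0209), under 2-fold but with no overlap.

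**Figure D2:**
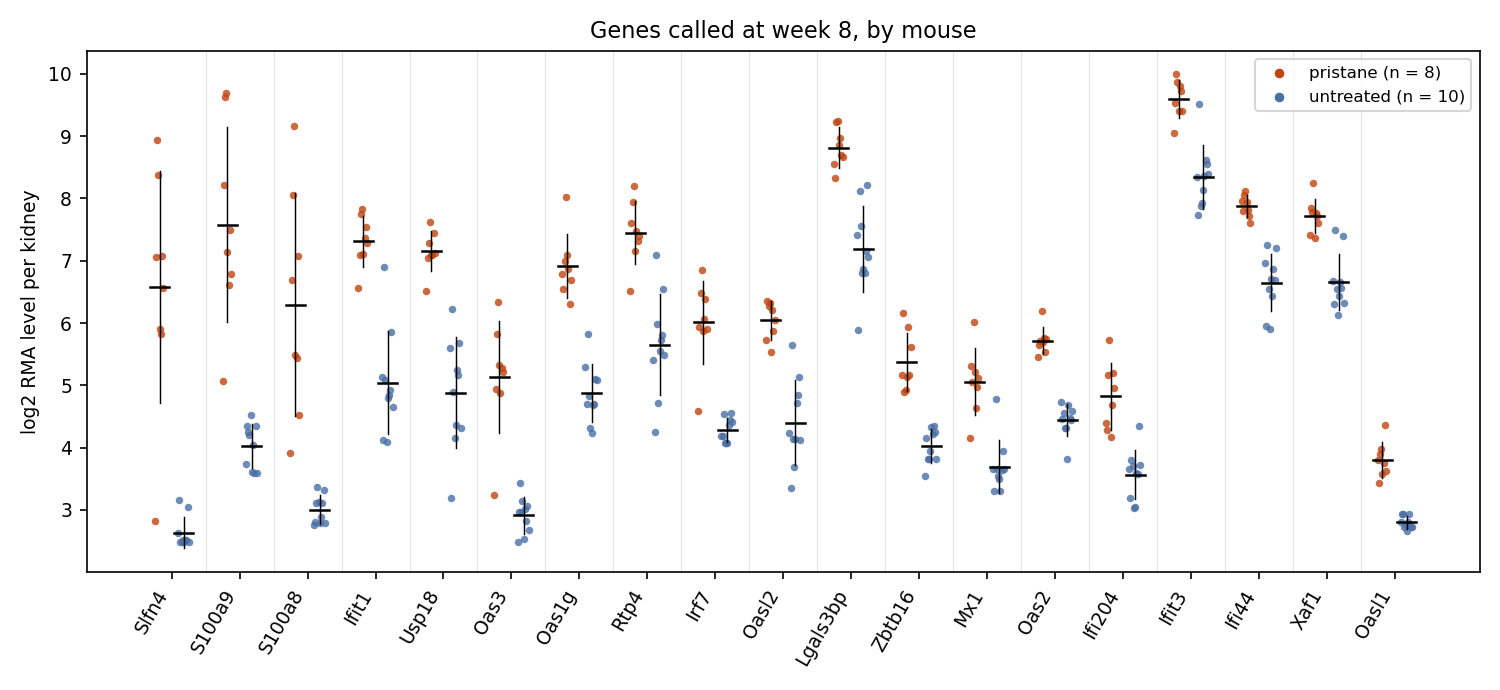
Log2 RMA level (y axis) of the 19 genes called at week 8 (x axis, ordered by log2 fold change), 1 point per kidney, with pristane kidneys (n = 8) left of untreated kidneys (n = 10). Bars are means and lines are ± 1 SD. Slfn4, S100a9 and S100a8 have the widest spread among pristane kidneys, while every pristane kidney lies above every untreated kidney in Oasl1 and Oas2.

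Among antiviral effectors 6 of 19 measured members rose and none fell, with a median log2 fold change of 0.65, against 0.181% of all genes that rose. Ifit1, which binds RNA that lacks the cap of host RNA, lay between 6.56 and 7.83 (median 7.33) in pristane kidneys, against 4.09 to 6.90 (median 4.88) in untreated kidneys. Untreated mouse 3 reached into the pristane range, and the log2 fold change was 2.28 ± 0.316 (4.84-fold, adjusted p = 0.00769). Ifit3, the partner that stabilizes Ifit1, was at 9.05 to 9.99 (median 9.62) in pristane kidneys and 7.73 to 9.52 (median 8.36) in untreated kidneys. The overlap was again with untreated mouse 3 alone, and the change was 1.25 ± 0.202 (adjusted p = 0.0221). Mx1, a GTPase that blocks influenza viruses, had 4.15 to 6.01 (median 5.08) in pristane kidneys, against 3.30 to 4.78 (median 3.65) in untreated kidneys. It changed by 1.36 ± 0.223 (adjusted p = 0.0251), with 6 of 8 pristane kidneys above all untreated ones. Rtp4 (1.80 ± 0.325, adjusted p = 0.0472), Xaf1, which binds the apoptosis inhibitor XIAP (1.06 ± 0.18, adjusted p = 0.0312), and the exonuclease Isg20 (0.80 ± 0.112, adjusted p = 0.00769) also rose. Of these, Isg20 alone had groups that did not overlap. The other probe set of Rtp4, at a mean level of 3.95, differed by 0.31 (adjusted p = 0.893). That of Xaf1, at a mean level of 2.51, differed by 0.04, and Xaf1 was not called with the mean over its probe sets. The other 13 members did not pass, among them Ifi27l2a at 1.49 (adjusted p = 0.542), Eif2ak2, the kinase PKR that halts translation, at 0.65 (adjusted p = 0.162) and Rsad2 at 0.16 (adjusted p = 1). Between 2 and 7 members rose when 1 mouse at a time was left out.

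The regulators of the response included Irf7, the transcription factor that amplifies interferon production. Its log2 level was 4.59 to 6.85 (median 6.01) in pristane kidneys, against 4.08 to 4.56 (median 4.27) in untreated kidneys. The groups did not overlap, although pristane mouse 1 lay within 0.1 of the highest untreated kidney, and the log2 fold change was 1.72 ± 0.217 (3.29-fold, adjusted p = 0.00448). It was the only one of 15 interferon receptors and transcription factors to rise, and Irf9, a part of the complex that drives interferon-stimulated genes, differed by 0.87 (adjusted p = 0.144). Usp18, which removes ISG15 from proteins and damps signalling at the interferon receptor, had 6.52 to 7.62 (median 7.11) in pristane kidneys and 3.19 to 6.23 (median 5.03) in untreated kidneys. It rose by 2.27 ± 0.328 (4.83-fold, adjusted p = 0.00925) without overlap, and was the only one of 5 ISG15 conjugation genes to do so. Among 16 nucleic acid sensors, Ifi204 (1.26 ± 0.215, adjusted p = 0.0324) and Ifi203 (0.52 ± 0.0712, adjusted p = 0.00739), both of the family of interferon-inducible DNA-binding proteins encoded on chromosome 1, rose. Ifi203 lay near the floor of 2.21, at 2.60 to 3.23 in pristane kidneys and 2.25 to 2.45 in untreated kidneys. Its other probe set lay at the floor and differed by 0.00. The other sensors did not pass, with Ifih1 at 0.59 (adjusted p = 0.549), Dhx58 at 0.45 (adjusted p = 0.265) and Sting1 at 0.02 (adjusted p = 1). Aim2, named only by the study's supplementary table and so not among the 16, differed by 0.07 (adjusted p = 1). It lay near the floor, at 2.41 to 2.99 in pristane kidneys and 2.29 to 2.84 in untreated kidneys, where a change could be missed.

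Not all interferon-inducible families had members that passed. Over the 8 lists of interferon genes 17 of 84 measured members rose and none fell, against 0.181% of all genes that rose. None of 10 interferon-inducible GTPases, which act in cells infected with intracellular parasites and respond above all to interferon gamma, passed the test, and their median log2 fold change was 0.00. The mean log2 level of the GTPases, set against its untreated mean, lay between -0.44 and 0.44 in pristane kidneys and between -1.28 and 1.79 in untreated kidneys. The spread was thus wider among untreated kidneys, with mice 3 (1.79) and 9 (1.64) at the top and mouse 2 (-1.28) at the bottom. MHC class II genes gave the same order at the top, with 1.49 in untreated mouse 3 and 1.06 in untreated mouse 9, and a range of -0.38 to 0.45 in pristane kidneys. None of 7 MHC class II genes, 11 genes of MHC class I and peptide loading, and 6 ADP-ribosyltransferases passed, although H2-T24, a nonclassical class I gene, rose by 0.65 ± 0.101 (adjusted p = 0.0201). The ADP-ribosyltransferases had a median log2 fold change of 0.47, with all 6 above 0 and 3 higher at an unadjusted p under 0.05 (limma). For MHC class II the median was -0.05, with 2 of 7 above 0, and for MHC class I it was 0.13, with 7 of 11 above 0. Untreated mouse 3 was the highest untreated kidney in 10 of the 19 called genes. Leaving out untreated mice 3 and 9 together, an alternative added once the data had been seen, gave 23 called genes, among them 18 of the 19.

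**Figure D3:**
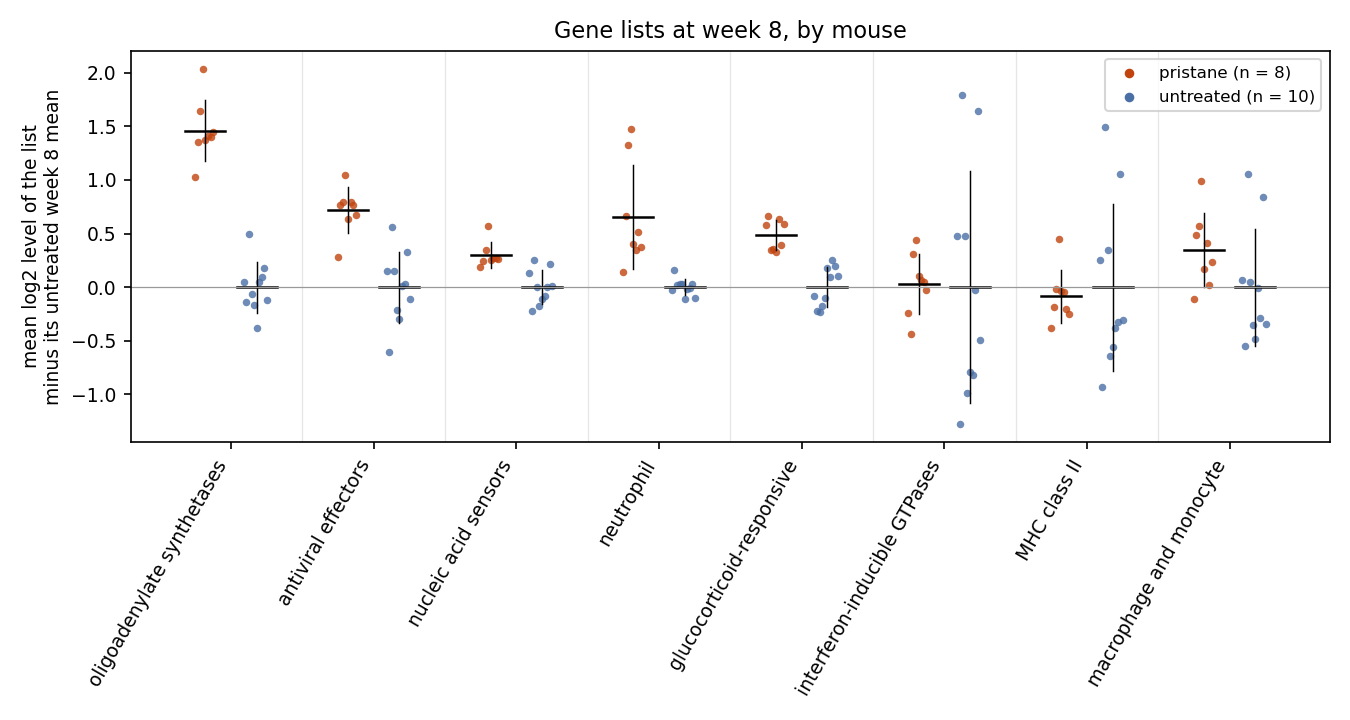
Mean log2 level of the measured genes of a list minus its mean over untreated kidneys of week 8 (y axis) for 8 gene lists (x axis), 1 point per kidney, pristane (n = 8) left of untreated (n = 10), with mean and ± 1 SD. Oligoadenylate synthetases lie between 1.03 and 2.04 in pristane kidneys, above the highest untreated kidney at 0.50, while untreated kidneys spread widest for the GTPases.

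Among the called genes, the 3 of largest fold change are known from myeloid cells. Slfn4, a mouse Schlafen family gene that interferon induces in macrophages, had log2 levels of 2.83 to 8.94 (median 6.81) in pristane kidneys, against 2.49 to 3.16 (median 2.52) in untreated kidneys. Pristane mouse 1 lay within the untreated range and the other 7 above it, and the log2 fold change was 3.93 ± 0.582 (15.3-fold, adjusted p = 0.0117). The other 6 Schlafen genes measured did not pass. S100a9 and S100a8 encode the subunits of calprotectin, which neutrophils and monocytes hold in large amounts. S100a9 was at 5.07 to 9.69 (median 7.32) in pristane kidneys and 3.60 to 4.53 (median 4.12) in untreated kidneys, a change of 3.55 ± 0.499 (11.7-fold, adjusted p = 0.00769). S100a8 had 3.91 to 9.17 (median 6.09) in pristane kidneys and 2.76 to 3.37 (median 2.99) in untreated kidneys, a change of 3.29 ± 0.558 (9.78-fold, adjusted p = 0.0312). Neither gene's groups overlapped, and the pristane kidneys spread over more than 4 log2 units in both. The call of S100a8 was lost in 13 of the 18 fits that left out 1 mouse, and that of S100a9 in none.

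S100a8 and S100a9 were the only members of the neutrophil list to rise, 2 of 14 with a list median of 0.15, against 0.181% of all genes. The granule genes Ngp (0.92) and Camp (0.63) did not pass, with highest levels of 5.72 and 4.75 in pristane kidneys and 2.43 and 2.27 in untreated kidneys, and Elane, Csf3r and Mmp8 lay at or within 0.1 of the floor in all 18 kidneys. None of 18 macrophage and monocyte genes passed (median 0.25), and Ms4a7, a macrophage membrane protein, differed by 1.24. Lists of complement (0 of 15, median 0.19), chemokines (0 of 21, median 0.12), Fc gamma receptors (0 of 11, median 0.19) and T and NK cells (0 of 16, median 0.03) had no member that passed. Among the chemokines Cxcl13, which attracts B cells, differed by 1.49 (adjusted p = 0.78). For the B and plasma cell list (0 of 11), Jchain, which links IgA and IgM subunits, lay between 8.35 and 11.55 in pristane kidneys and between 7.19 and 10.07 in untreated kidneys, a difference of 1.41 (adjusted p = 0.59).

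Further rises lay outside the lists counted above. Lgals3bp, a secreted protein that binds galectins, was at 8.32 to 9.24 (median 8.78) in pristane kidneys and 5.89 to 8.21 (median 7.11) in untreated kidneys. All 8 pristane kidneys were higher, and the log2 fold change was 1.63 ± 0.259 (3.09-fold, adjusted p = 0.0209). Ifi44, an interferon-induced protein, lay between 7.60 and 8.12 in pristane kidneys and between 5.90 and 7.26 in untreated kidneys (1.23 ± 0.171, adjusted p = 0.00769). Its probe set takes its name only from the study's supplementary table, which may list genes for their change at week 14. Phf11a, just under the threshold of 2-fold, had a log2 fold change of 1.0 ± 0.161 (adjusted p = 0.0221), and Chl1, a cell adhesion molecule of neurons, one of 0.72 ± 0.127 (adjusted p = 0.0412). Chl1 did not pass in 15 of the 18 fits without 1 mouse, and Phf11a in 7. The unnamed probe set 1427792_PM_at stood at 2.52 in all 10 untreated kidneys and between 2.52 and 4.83 (median 4.32) in pristane kidneys, with 7 of 8 above the untreated value (1.48 ± 0.248, adjusted p = 0.0295). The other unnamed probe set, 1442026_PM_at, had 6.90 to 8.13 in pristane kidneys and 5.28 to 6.66 in untreated kidneys (1.52 ± 0.216, adjusted p = 0.00844).

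A separate set of rises was found in genes that glucocorticoids are known to induce. Of 8 such genes measured, Zbtb16, Angptl4 and Fkbp5 rose, against 0.181% of all genes. The list's median log2 fold change was 0.42, against 0.00 over all genes, and the list was written with earlier results of these data known. Zbtb16, the transcription factor PLZF, lay between 4.89 and 6.16 (median 5.17) in pristane kidneys, against 3.54 to 4.35 (median 4.05) in untreated kidneys. The groups were clear of each other, with a log2 fold change of 1.36 ± 0.175 (2.56-fold, adjusted p = 0.00508), while the other probe set of Zbtb16 lay near the floor and differed by 0.00. Angptl4, an inhibitor of lipoprotein lipase, was at 7.32 to 8.56 (median 7.70) in pristane kidneys and 6.55 to 7.19 (median 6.97) in untreated kidneys. Fkbp5, a chaperone that lowers the hormone affinity of the glucocorticoid receptor, was at 6.18 to 6.91 (median 6.32) in pristane kidneys and 5.30 to 6.07 (median 5.75) in untreated kidneys. In both genes all 8 pristane kidneys lay above the 10 untreated ones, by 0.84 ± 0.149 for Angptl4 and 0.71 ± 0.127 for Fkbp5 (adjusted p = 0.0433 each). The other probe sets of Fkbp5 differed by 0.08 (mean level 3.72) and 0.00 (mean level 2.21), and that of Angptl4 by 0.00 (mean level 2.21). Each of these 2 genes did not pass in 15 of the 18 fits that left out 1 mouse, while Zbtb16 passed in all 18. Tsc22d3, a further glucocorticoid target, differed by 0.56 (adjusted p = 0.327). With the adrenal gene signal as a covariate, an alternative chosen after seeing the data, 1 of the 3 genes still passed. Adrenal genes, of which none of 12 passed, were above their untreated mean in 3 of 8 pristane kidneys and 4 of 10 untreated kidneys. The adrenal gene Hsd3b1 lay at 9.12 to 11.56 in those 3 and at 10.49 to 11.81 in those 4. In all other kidneys of week 8 it lay at 3.29 to 5.18, so the adrenal signal was present or nearly absent. Fat genes were above their untreated mean in 2 of 8 pristane kidneys and 5 of 10 untreated kidneys. With untreated mice of all weeks as controls, Zbtb16 differed by 0.91 (adjusted p = 0.364).

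Genes of the circadian clock, a transcription loop that cycles over the day in kidney as in other tissues, gave 1 rise in 16. Over all genes the share that rose was 0.181%. Ciart, a repressor of the loop, had log2 levels of 5.70 to 6.26 (median 5.99) in pristane kidneys, against 4.59 to 5.76 (median 5.18) in untreated kidneys. Of the pristane kidneys 7 lay above all untreated ones, and the log2 fold change was 0.81 ± 0.138 (adjusted p = 0.0312). Noct, a rhythmic phosphatase of nicotinamide cofactors that stands outside the list, had 7.77 to 8.51 in pristane kidneys and 7.15 to 7.69 in untreated kidneys (0.59 ± 0.0948, adjusted p = 0.0209). Npas2, an activator of the loop that pairs with Arntl, was at 5.52 to 6.07 (median 5.88) in pristane kidneys and 6.21 to 7.37 (median 6.64) in untreated kidneys. All 8 pristane kidneys lay below all 10 untreated ones, yet the log2 fold change of -0.89 ± 0.168 did not pass over all probe sets (adjusted p = 0.0662). It had the smallest p among the differences toward lower levels. Arntl itself differed by -0.41, Per1 by 0.46, Per2 by 0.53, Per3 by 0.33, Dbp by 0.31 and Tef by 0.29, none past the test. Of the 16 genes 5 were higher and 1 was lower at an unadjusted p under 0.05.

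**Figure D4:**
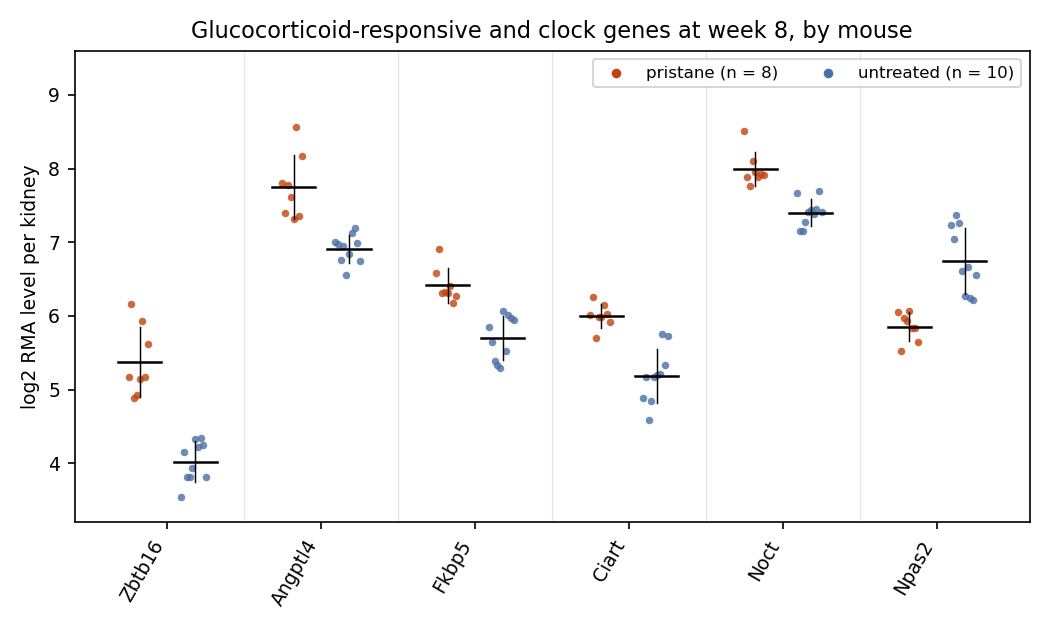
Log2 RMA level (y axis) of 3 glucocorticoid-responsive genes (Zbtb16, Angptl4, Fkbp5) and 3 rhythmic genes (Ciart, Noct, Npas2) at week 8, 1 point per kidney, pristane (n = 8) left of untreated (n = 10), with mean and ± 1 SD. Npas2 is the gene in which pristane kidneys lie lower, at 5.52 to 6.07 against 6.21 to 7.37 in untreated kidneys.

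Kidney parenchyma and injury genes gave no calls at week 8. None passed of 21 proximal tubule genes (median 0.01), 19 distal nephron genes (median -0.01), 10 podocyte genes (median 0.15), 13 genes of fatty acid oxidation (median 0.11) and 19 of oxidative phosphorylation (median 0.01). None passed either of 16 genes of tubular injury and the acute phase (median 0.04) and of 21 genes of fibrosis and matrix (median 0.02). Havcr1, which encodes the tubular injury marker KIM-1, lay between 3.69 and 5.86 (median 4.09) in pristane kidneys and between 3.62 and 4.16 (median 4.07) in untreated kidneys, a difference of 0.25 (adjusted p = 1). Lcn2, a protein that injured tubules secrete, had 4.48 to 8.14 (median 6.28) in pristane kidneys and 4.8 to 5.93 (median 5.23) in untreated kidneys (0.96, adjusted p = 1). Havcr1 exceeded the untreated range by more than 0.1 in pristane mouse 4 alone, and Lcn2 was above that range in 5 pristane kidneys and below it in 1. Saa3, an acute phase protein, had the second largest fold change of the named genes, with 3.39 to 10.03 (median 8.18) in pristane kidneys and 3.39 to 7.0 (median 3.43) in untreated kidneys. Pristane mouse 1, at 3.39, lay at the bottom of the untreated range and the other 7 lay above untreated mouse 1, the highest untreated kidney. The log2 fold change of 3.86 ± 0.758 (14.5-fold) did not pass (adjusted p = 0.0914), but passed at 4.5 without pristane mouse 1 (adjusted p = 0.00306) and at 4.19 without untreated mouse 1 (adjusted p = 0.0417). Col3a1 differed by 0.60, Timp1 by 0.86, Tnc by 0.04, Fbn2 by -0.14 and Acta2 by -0.59 (adjusted p = 1 for the first 4 and 0.468 for Acta2), and Saa1 lay at the floor in all 18 kidneys. In total 32 of 41 gene lists had no member that passed.

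The effects of week 8 were set against those of the other weeks, each with its own untreated mice. Of the 19 genes, 15 were called 2 weeks after injection, 14 at week 4, 7 at week 12 and 18 at week 14. Their median log2 fold change, 1.64 at week 8, had been 1.56 at week 2 and 1.40 at week 4, and later was 1.95 at week 12 and 2.86 in week 14. All of them were above 0 at every week with the exception of Zbtb16 at week 4 (-1.20). Over all genes 32, 34, 19, 9 and 919 were called at weeks 2, 4, 8, 12 and 14 in this order, and genes lower in pristane kidneys were called at week 14 alone, with 283.

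Only 6 probe sets (0.0133%) differed between the effect at week 8 and that at week 4 in an interaction test, all with the larger value at week 8. Zbtb16 averaged 5.38 ± 0.471 in pristane kidneys and 4.02 ± 0.277 in untreated kidneys at week 8 (SD, n = 8 and 10). At week 4 it averaged 4.52 ± 0.672 in pristane kidneys and 5.72 ± 0.679 in untreated kidneys (SD, n = 10 and 9). The order of the group means was thus reversed between the weeks. The week 4 effect of -1.20 did not itself pass (limma adjusted p = 0.229), and the untreated mean moved more between the weeks than the pristane mean. The effects differed by 2.56 ± 0.36 (SE, limma adjusted p = 7.95e-04). This difference passed under the 8 alternatives run for it and with each mouse left out. Ppara, the nuclear receptor that drives fatty acid oxidation, had effects of 0.39 at week 8 and -0.48 at week 4, a difference of 0.87 ± 0.152 (adjusted p = 0.0245). The unnamed probe set 1442026_PM_at differed by 3.0 ± 0.41 (adjusted p = 7.95e-04). The same contrast gave 1.34 for Angptl4 (adjusted p = 0.0615), 1.2 for Ciart (adjusted p = 0.0761), 1.11 for Fkbp5 (adjusted p = 0.17) and -1.10 for Npas2 (adjusted p = 0.157), none past the test. With 1 mouse at a time left out, between 3 and 23 probe sets passed against week 4. Against week 12 no probe set passed with limma, and 1570 of 45037 had an unadjusted p under 0.05, again a smaller share than 0.05.

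Against week 14, 4558 probe sets (10.1%) differed, of which 2643 had a larger and 1915 a smaller value at week 8, and 6956 differed without pristane mouse 2 of week 14. Of the 19 genes 12 had a smaller effect at week 8, among them Ifit1 (-2.30 ± 0.496, adjusted p = 0.0058), Rtp4 (-2.16 ± 0.49, adjusted p = 0.00733), Oasl2 (-2.07 ± 0.459, adjusted p = 0.00633), Mx1 (-2.05 ± 0.427, adjusted p = 0.00505) and Irf7 (-2.00 ± 0.431, adjusted p = 0.0058). The called genes known from myeloid cells were not in this set, unlike macrophage genes that gave no call at week 8. Of those, Ms4a7 differed by -3.03 (adjusted p = 0.00525), Ms4a6c by -2.10 (adjusted p = 0.0311) and Cd68 by -2.03 (adjusted p = 0.0337). Slfn4 differed by 0.73 ± 0.854, S100a8 by 1.06 ± 0.751 and S100a9 by 0.85 ± 0.734, errors too wide to say that the effects were alike. Ciart (1.11 ± 0.257, adjusted p = 0.00823), Noct (0.87 ± 0.215, adjusted p = 0.0116) and Chl1 (0.74 ± 0.202, adjusted p = 0.0195) had a larger effect at week 8 than at week 14. The injury genes Havcr1 and Lcn2, which gave no call at week 8, differed by -4.54 (adjusted p = 0.00313) and -4.31 (adjusted p = 0.00525).

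**Figure D5:**
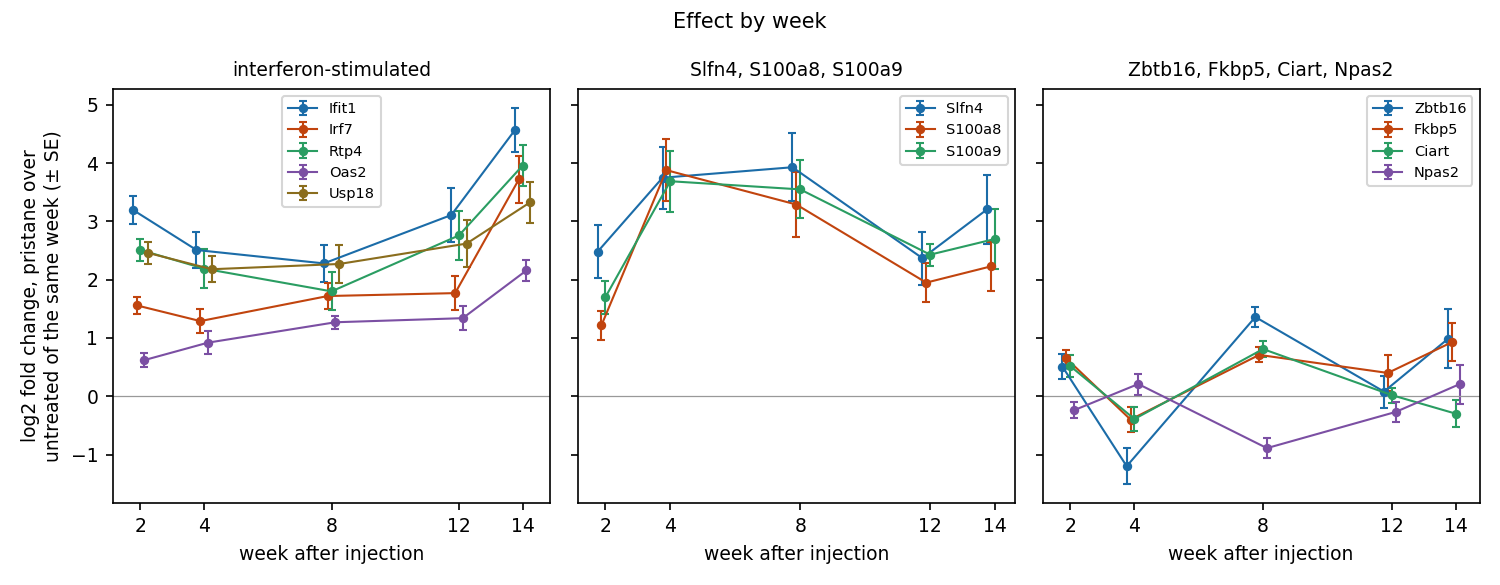
Log2 fold change of pristane over untreated kidneys of the same week (y axis, ± SE) by week after injection (x axis) for interferon-stimulated genes (left), Slfn4, S100a8 and S100a9 (middle) and Zbtb16, Fkbp5, Ciart and Npas2 (right). Ifit1 reaches 4.57 at week 14 against 2.28 at week 8, and Zbtb16 stands at -1.20 at week 4 and 1.36 at week 8.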

How the data were processed

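Kidney RNA of 18 SNF1 mice at week 8 was compared, with arrays of weeks 4, 12 and 14 used for differences between weeks. The deposited values are log2 levels that the authors made with RMA, and the submitters' processing notes also name Partek. Versions are not given in the sources used here. After 104 control probe sets were left out, 45037 were tested in R 4.3.3 with limma 3.58.1 (lmFit, eBayes) on the pristane and untreated mice of week 8 alone, with Benjamini-Hochberg adjustment. Differences between weeks were interaction contrasts. RMA values hold no read depth, and the number of arrays limits the precision. The labels number the mice, 1 array each, so the spread is between animals.

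Array annotation listed 29449 of the tested probe sets, of which 28898 had 1 gene symbol and 551 several. A further 373 probe sets were named only by the study's supplementary table. A gene was represented by its probe set of highest mean over all arrays (17097 genes). Of 557 entries in 41 lists 488 were matched, and a member rose or fell at an adjusted p under 0.05 at any fold. Named genes were all called genes, up to 10 under 2-fold, the 10 of smallest p toward lower levels, up to 3 per list, genes the study names and the largest differences between weeks. Other names (further list members and the 2 unnamed probe sets) were added with their values already seen. The comparison, the members and the lists were chosen with earlier results of these data known. The test was checked on simulated data. Alternatives were another centring, normalization, filter, fit, control group, threshold and gene summary, array weights, a block and leaving out each mouse. Other tissues, strains and older mice were not analysed here.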

Additional observations from a re-analysis of the deposited data

Results flagged for a closer look

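Within each group of week 8, single mice that stood apart from the rest were sought with Dixon's test at the 95% level. The search took the called genes, the named genes under 2-fold and most lists. Lists of adrenal gland, fat, red blood cell and platelet, urothelium, skeletal muscle and pancreas were left out. Of 128 groups tested, 18 had a mouse apart. Chance alone gives about 1 group in 20, but the groups hold the same mice and are not independent, so the 2 shares cannot be compared directly. Pristane mouse 4 was the highest of its group for Oas2 (6.19, the others 5.45 to 5.76) and Oas1g (8.03, the others 6.31 to 7.09). It was also the highest in the mean level, set against the untreated mean, of the lists of nucleic acid sensors (0.57), MHC class II (0.45), T and NK cells (0.35) and cell cycle genes (0.46). Pristane mouse 1 was the lowest of its group for Irf7 (4.59, the others 5.87 to 6.85) and Oas3 (3.24, the others 4.88 to 6.34) and the highest for Noct (8.51). Among untreated kidneys, mouse 3 was highest for Ifit3 (9.52, the others 7.73 to 8.61) and Mx1 (4.78, the others 3.30 to 3.95), mouse 6 was lowest for Oas2 (3.82) and mouse 8 was highest for Chl1 (4.78). Untreated mouse 2 was highest in the Schlafen list (0.29) and the neutrophil list (0.16) and lowest in the lists of kidney endothelium (-0.43) and the renin-angiotensin system (-0.46), and untreated mouse 1 was highest in the B and plasma cell list (0.51, the others -0.11 to 0.03).

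Differences of effects between weeks passed the interaction test of limma for these genes, as the log2 fold change at week 8 minus that at the other week. Zbtb16 differed from week 4 by 2.56 (adjusted p = 7.95e-04). Against week 14 the effect was smaller at week 8 for Irf7 (-2.00), Rtp4 (-2.16), Isg20 (-0.74), Ifi204 (-1.40), Oasl1 (-1.26), Oas1g (-1.59), Oas2 (-0.88), Phf11a (-0.96), Xaf1 (-1.61), Lgals3bp (-1.51), Ifit3 (-1.15), Ifit1 (-2.30), Ifi203 (-1.08), Mx1 (-2.05) and Oasl2 (-2.07). It was larger at week 8 for Noct (0.87), Ciart (1.11) and Chl1 (0.74). The adjusted p-values against week 14 ranged from 0.00337 for Ifi203 to 0.0487 for Isg20.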

How the results depend on the processing

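The count of 19 called genes lay between 18 and 25 under median centring, quantile normalization, a filter that drops probe sets of mean level under the 40th percentile, all groups in a single fit, a trended and robust fit, weights per group, a mean over the probe sets of a gene, the adrenal signal as a covariate and array annotation names alone. With untreated mice of all weeks as controls, 46 genes were called, 123 probe sets passed in place of 39, and 45 list members in place of 23, of them 11 antiviral effectors in place of 6. At an adjusted p under 0.01 there were 10 genes, 14 probe sets, 11 list members and 2 antiviral effectors, and without a minimum fold change 34 genes. Leaving out 1 mouse at a time gave 10 to 20 genes, 17 to 39 probe sets, 13 to 23 list members, 2 to 7 antiviral effectors and 4 to 6 oligoadenylate synthetases. Probe sets lay between 17 and 24 without pristane mouse 2, 3, 4 or 6 or untreated mouse 2, 4, 5 or 7. List members fell to 13 without pristane mouse 2 or 3 or untreated mouse 4 or 7, and to 15 or fewer also without pristane mouse 4, 6 or 7 or untreated mouse 2 or 5. Antiviral effectors fell to 4 without pristane mouse 5 or untreated mouse 6 and to 3 or 2 without any other mouse, with 7 without pristane mouse 1 and 6 without untreated mouse 3 or 9 as the exceptions. Rtp4 lost its call in 15 of these fits, Ifi204 and Xaf1 in 14, S100a8 in 13, Mx1 in 12, Ifit3 in 8, Oasl1 in 7, and Lgals3bp and Oasl2 in 5. Oasl1 lost it by fold change alone, as its limma adjusted p was at most 9.31e-04 in these fits. Among genes under 2-fold, Angptl4 passed at an adjusted p under 0.05 in 3 of 18 of them, as did Fkbp5, Ciart in 5 and Noct in 14. H2-T24 did not pass in 2 and Oas1b in 4. Chl1 also did not pass with weights per group and without untreated mice 3 and 9. No called gene, gene under 2-fold or gene of smallest p toward lower levels (39 genes) changed direction under the alternatives run for it, which the other named genes, Saa3 apart, were not put through. Npas2 passed under median centring (adjusted p = 0.0393), the filter (0.0184), the single fit (0.0146), weights per group (0.0346), controls of all weeks (-1.44, adjusted p = 0.0062), and without untreated mouse 6 (0.0489) or 9 (0.0437). Saa3 passed with the filter (adjusted p = 0.0216), the single fit (5.33e-04), controls of all weeks (1.26e-08), the mean over probe sets (0.041) and without pristane mouse 1 (0.00306) or untreated mouse 1 (0.0417), and its adjusted p was 0.0518 to 0.661 under the others.

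The labels do not say that the replicate numbers pair the mice. Over 8 numbers, 3 correlations were above 0.1, with a range of -0.26 to 0.21. No pristane mouse was closest to the untreated mouse of its own number. So few and weak correlations cannot exclude pairing or a shared experiment. The replicate number was also used as a block, which at week 8 leaves out untreated mice without a pristane mouse of the same number. With it 0 genes, 0 probe sets, 0 list members, 0 antiviral effectors and 0 oligoadenylate synthetases passed at week 8 with limma. At an unadjusted p under 0.05 (limma) there were 2710 of 45037 probe sets, of which 2032 were higher and 678 lower in pristane kidneys. With the block, 25 probe sets passed against week 14 and 1 against week 12. Against week 4, 16 probe sets passed after median centring, 20 after the filter, 2 at an adjusted p under 0.01, and 3 to 23 without 1 mouse (over 1.5 times more or fewer than 6 for 14 of 37 mice), with 23 without untreated mouse 3 of week 4 and 22 without untreated mouse 10 of week 8. Against week 12 the count stayed at 0 with any mouse left out. Against week 14, 1203 passed at an adjusted p under 0.01 and 3106 to 6956 without 1 mouse. With 1 mismatch allowed, the promoter motif was found in 100% of 13 called genes and 68.8% of all genes with a promoter. Levels near the floor, as for Slfn4 and S100a8 in untreated kidneys, may understate a change.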

Other observations

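Some values stood out without passing the test. The probe set that the study's supplementary table names Ighg had the largest difference after Saa3 among these, a log2 fold change of 3.42 in pristane over untreated kidneys (limma adjusted p = 0.0662). It was chosen after its values were seen. Lep, the fat hormone leptin, differed by -1.53 (unadjusted p = 0.0144), and fat genes had a list median of -0.77 with none of 6 past the test. Of 3 probe sets of Ccnd1, which encodes cyclin D1, 2 rose by 0.50 and 0.49, and the remaining one differed by 0.54 (adjusted p = 0.116).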
